A study of Mus musculus with 12 samples.

Results

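The transcripts described here are those of a group of inflammatory CC chemokines and of one of their receptors, listed as Ccl3, Ccl4, Ccl5 and Ccr1. They were taken by their gene symbols and not by their values. Of the 4 symbols, 3 had a row in the deposited table of 561 genes (Ccl3, Ccl4 and Ccl5), and Ccr1 was not analysed here. The values are from bulk tumors in C57BL6 mice whose age is given as 6 to 8 weeks, bearing MC38 colorectal tumors or the pancreatic ductal adenocarcinomas Pan02 and KPC. The mice were wild type (WT) or Sirpα-/-, a knockout carried in all cells that removes the inhibitory myeloid receptor SIRPα, and their tumors, above 200 mm3, were left without irradiation (no IR) or given 8 Gy. Each of the 12 combinations was 1 sample, in which RNA of 4 mice was pooled, 2 of them taken 12 h and 2 taken 18 h after the treated mice had received IR. Within a tumor model 1 sample therefore stood against 1 sample, and the 3 tumor models served as the replicates of each of the 4 groups. The p-values below for genotype and IR therefore hold for the variation among tumor models, and say nothing of that among mice. In the comparisons between tumor models the 4 groups, 1 pooled sample each, stood in place of replicates. Those p-values likewise say nothing of the variation among mice.

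CCL3 and CCL4 (macrophage inflammatory proteins 1α and 1β) and CCL5 (RANTES) are small secreted proteins that attract monocytes, macrophages, dendritic cells, NK cells and activated T cells. They act on G protein-coupled receptors of target cells, among which CCR1 binds CCL3 and CCL5, and CCR3 binds CCL5. Activated macrophages, NK cells and CD8 T cells are known sources, and in tumors CCL5 and CCL4 are often studied as signals that bring in dendritic and T cells.

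In the mouse annotation of build GRCm38.p6 the 3 ligand genes lie on chromosome 11, with Ccl5 at 83525778 to 83530518, Ccl3 at 83647843 to 83649378 and Ccl4 at 83648624 to 83664683. The annotated intervals of Ccl3 and Ccl4 overlap in part. Where the probes bind within these genes was not known here, nor whether a probe lies in the shared interval. Of the 3 ligands, Ccl3 had an entry in the RefSeq promoter table of the same build, and its promoter is shown because motifs for the factors that are known to act on these chemokine genes could be looked for in it. The window, on the minus strand at chr11:83649329-83649628 and covering 250 bases before and 50 bases after the start of the gene, reads 5′ to 3′ as follows.
Ccl3 promoter: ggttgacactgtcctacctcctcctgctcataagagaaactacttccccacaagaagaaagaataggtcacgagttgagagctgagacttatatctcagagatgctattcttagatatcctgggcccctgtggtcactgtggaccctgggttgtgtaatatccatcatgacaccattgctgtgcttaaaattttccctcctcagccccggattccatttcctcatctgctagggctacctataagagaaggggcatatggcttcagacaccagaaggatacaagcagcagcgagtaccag
None of the motifs searched on both strands was found in these 300 bases, so no letter is in capitals. They were GGGANNNTC for NF-kB, held by 14.5% of the 32851 promoters in the table, AAANNGAAA for interferon-stimulated response elements (10.6%), TGANTCA for AP-1 (7.81%) and TATAAA for the TATA box (13.6%). The absence says only that these letters do not occur in this window.

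RNA was counted with the nCounter Mouse Immunology Panel, in which each transcript is read as a barcoded probe, and the values are normalized counts. Net counts recovered from the spacing of the values ranged from 79121 to 403332 in 10 of the samples, but came to 21400 in WT and 12025 in Sirpα-/- KPC tumors without IR. In those KPC samples the floor, set at 3 counts, came to 11.4 and 19.5 in normalized units. The panel's 14 reference genes had a geometric mean of 824 to 922 in MC38, 625 to 850.3 in Pan02 and 335 to 456 in KPC. The 3 irradiated samples of Sirpα-/- mice stood apart at the low end: their 20th percentile over all genes was 20.5 in MC38, 49.5 in Pan02 and 17.8 in KPC, and no other sample exceeded 6.48. In bulk RNA, fewer cells of a type and less RNA per cell cannot be told apart.

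**Figure D1:**
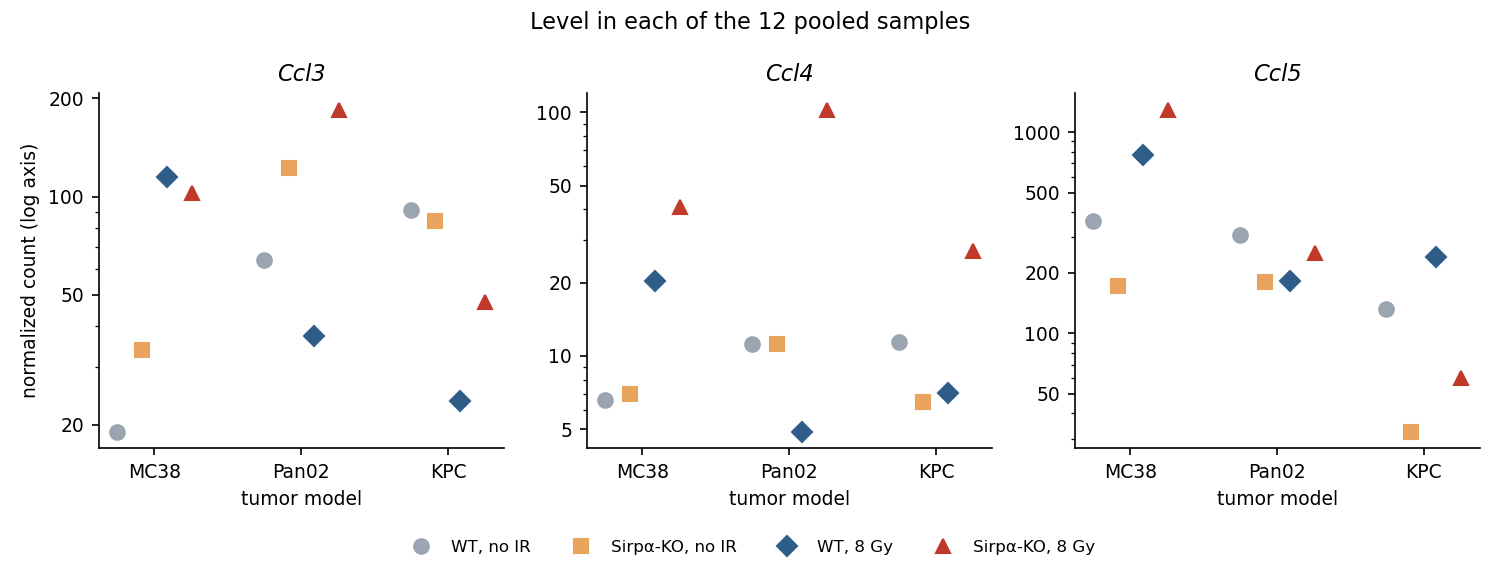
Normalized counts (log axes) of Ccl3, Ccl4 and Ccl5 in each of the 12 pooled samples, by tumor model, with 1 symbol per genotype and treatment. Irradiated Sirpα-/- tumors, shown as triangles, hold the highest Ccl4 value in each tumor model (40.9, 102.7 and 27.1), whereas the highest Ccl3 and Ccl5 values fall in different groups in different tumor models.

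Ccl4, which encodes macrophage inflammatory protein 1β, was low in most tumors and was highest after IR in Sirpα-/- mice in each tumor model. In MC38 tumors it was at 6.60 normalized counts in WT and 7.0 in Sirpα-/- mice without IR, and at 20.3 in WT and 40.9 in Sirpα-/- mice after IR. In Pan02 tumors the corresponding values were 11.2, 11.2, 4.88 and 102.7. In KPC tumors they were 11.4 (3 net counts), 6.48 (the lowest value of that sample), 7.05 and 27.1. Irradiated Sirpα-/- tumors were between 27.1 and 102.7, and irradiated WT tumors between 4.88 and 20.3. Without IR the values were 6.48 to 11.2 in Sirpα-/- and 6.60 to 11.4 in WT tumors. The 20th percentile of all genes was likewise highest in irradiated Sirpα-/- samples (17.8 to 49.5, at most 6.48 elsewhere). How many genes were separated in the same way was not counted.

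Across the 3 tumor models Ccl4 rose after IR in Sirpα-/- mice, with a log2 fold change of 1.72 (standard error, SE, 0.42 and limma adjusted p = 0.0124) and a higher value in 3 of 3 tumor models. In this comparison 199 of 461 genes tested (43.2%) passed the same threshold, 198 of them upward and 1 downward, so a rise was common among the genes of the panel. With scaling by the median ratio 68 genes were higher and 8 lower, and after quantile normalization 17 and 6. The median log2 fold change of all genes was 0.91, and 0.42 and -0.04 under these settings. Irradiated Sirpα-/- tumors were also higher in Ccl4 than irradiated WT tumors, by a log2 fold change of 1.60 (SE 0.42, limma adjusted p = 0.0235) and in 3 of 3 tumor models, in a comparison that called 76 of the 461 genes (16.5%), 73 upward and 3 downward, or 11 and 3 after quantile normalization. Both comparisons share the irradiated Sirpα-/- samples, and Ccl4 entered the test only through 1 of them, that of Pan02. The study names Ccl4 for these samples, so its direction is not independent evidence. In WT mice the log2 fold change of Ccl4 after IR was 0.01 (SE 0.42, limma adjusted p = 0.994), with a 95% interval from -0.91 to 0.93. Here 0 of the 461 genes (0%) passed, while 76 had an unadjusted p under 0.05 and edgeR called 0. The IR effect itself was larger in Sirpα-/- than in WT mice by a log2 of 1.71 (95% interval 0.41 to 3.02), which did not pass after adjustment (limma adjusted p = 0.141). In that comparison 0 of 461 genes (0%) were called by limma and 0 by edgeR, with 74 at an unadjusted p under 0.05. Without IR the genotypes differed in Ccl4 by a log2 of -0.11 (limma adjusted p = 0.967).

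The Ccl4 ratios within each tumor model compare 1 pooled sample with 1, and their intervals cover counting error only. Irradiated Sirpα-/- tumors exceeded irradiated WT tumors 2.02-fold in MC38 (95% interval of counting error 1.08 to 4.02), 21.0-fold in Pan02 (8.91 to 60.5) and 3.84-fold in KPC (2.06 to 7.58). Against Sirpα-/- tumors without IR the ratio was 5.85 in MC38 (2.56 to 16), or 3.71 with scaling by the median ratio, and 9.19 in Pan02 (3.5 to 32.1), where 40.8% of 448 genes were higher by at least 2-fold on the scale of (normalized count + 10), and Ccl4 was at least 1.39-fold higher in KPC, measured against the floor of 3 counts in that sample. In WT mice IR moved Ccl4 3.08-fold upward in MC38 (1.21 to 8.30), while Pan02 was 2.30-fold lower after IR (0.882 to 7.03) and KPC 1.61-fold lower (0.297 to 5.78), or 2.59-fold with scaling by the median ratio, both with intervals that include 1.

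Only 1 of the 12 Ccl4 values, that of irradiated Sirpα-/- Pan02 tumors, reached the 50 normalized counts that a gene needed in any sample to be tested. Ccl4 therefore passed the filter through the group in which it was high. Without Pan02 and with no filter, its log2 fold changes were 1.38 after IR in Sirpα-/- mice (limma adjusted p = 0.0522) and 0.93 between irradiated genotypes (limma adjusted p = 0.217). Without KPC they were 2.00 and 1.84 (limma adjusted p = 0.0641 and 0.140), and without MC38 1.79 and 2.02 (limma adjusted p = 0.0497 and 0.0541). With edgeR on the recovered counts, Ccl4 did not pass in either comparison (edgeR adjusted p = 0.182 and 0.195).

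The Ccl4 values moved together with the low end of the samples. Ranked among the 561 genes of its own sample, Ccl4 in irradiated Sirpα-/- tumors held percentile 37.6 (MC38), 45.6 (Pan02) and 34.1 (KPC), and in irradiated WT tumors 32.6, 22.5 and 28.8. It thus ranked higher in Sirpα-/- mice in 3 of 3 tumor models. In tumors without IR it was at percentile 35.2 (WT) and 27.5 (Sirpα-/-) in MC38, 26.3 and 26.8 in Pan02, and 38.6 and 23.9 in KPC. The rank of the irradiated Sirpα-/- KPC sample thus lay below that of WT KPC tumors without IR. The latter rank rests on 3 net counts, in a sample where 176 genes shared the lowest value. In Sirpα-/- KPC tumors without IR Ccl4 was itself at the lowest value, shared by 267 genes. When all samples were given the same distribution by quantile normalization, the log2 fold changes were 0.70 after IR in Sirpα-/- mice (limma adjusted p = 0.187) and 0.60 between irradiated genotypes (limma adjusted p = 0.443), and neither passed the test. The part of the raised low end in the Ccl4 result was not tested further.

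**Figure D2:**
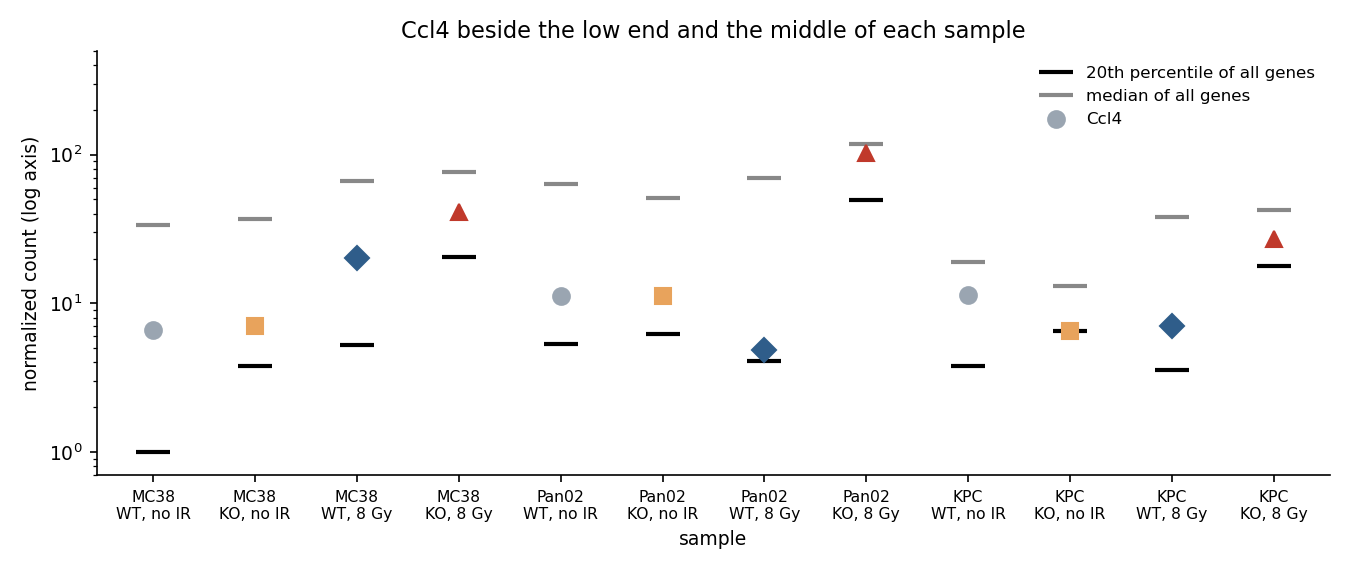
Ccl4 (symbols colored by genotype and treatment), the 20th percentile (black bars) and the median (grey bars) of all genes in each sample, in normalized counts on a log axis. In the 3 irradiated Sirpα-/- samples both Ccl4 (27.1 to 102.7) and the 20th percentile (17.8 to 49.5) lie above their values in all other samples.

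**Figure D3:**
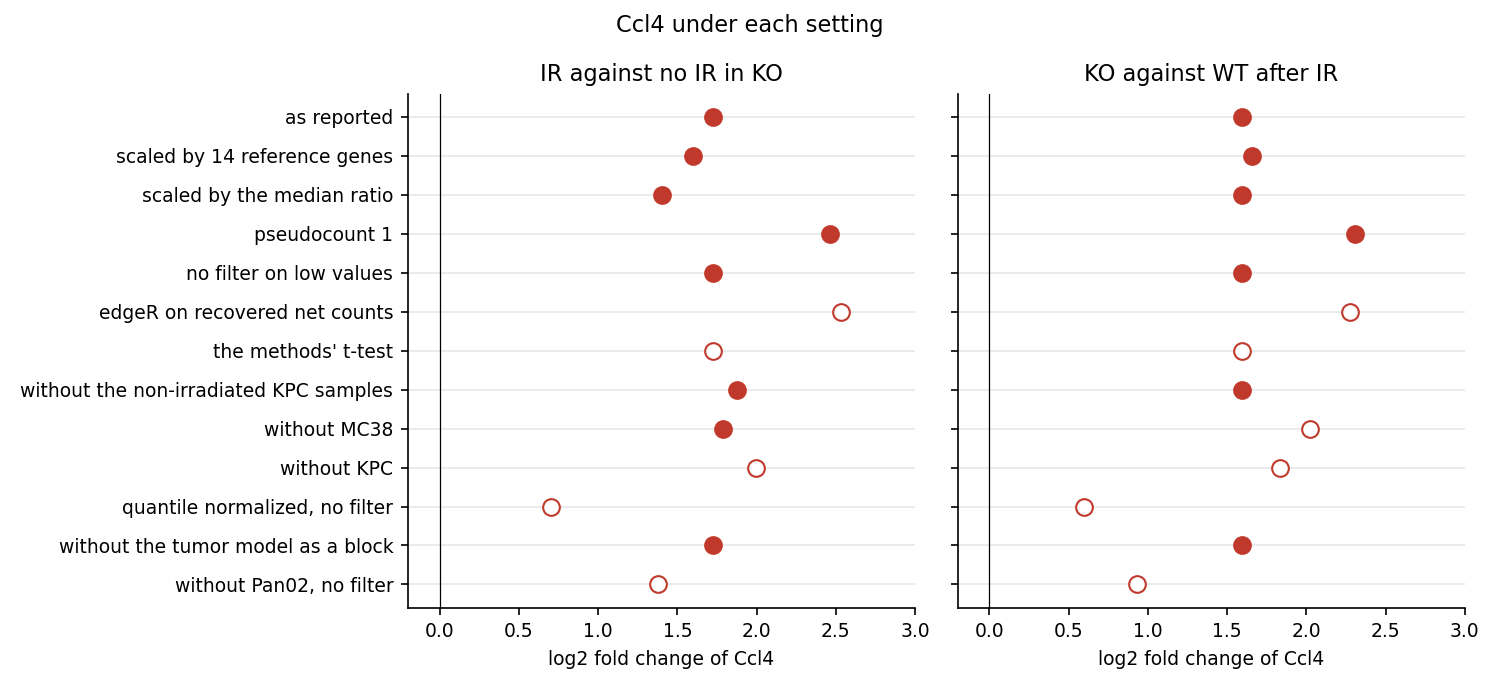
Log2 fold change of Ccl4 in 2 comparisons under the reported setting and 12 alternatives, with filled circles where the adjusted p is under 0.05 and open circles where it is not. Every value is above 0, and the lowest is that after quantile normalization in both comparisons (0.70 and 0.60).

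Ccl3, which encodes a ligand of CCR1, followed no common direction across the tumor models. In MC38 tumors it was at 19.0 normalized counts in WT and 33.9 in Sirpα-/- mice without IR, and at 115 in WT and 102 in Sirpα-/- mice after IR. In Pan02 tumors it was at 63.7, 123, 37.4 and 185 in the same order. In KPC tumors it was at 91.0 (24 net counts), 84.3 (13 net counts), 23.7 and 47.4. The 4 groups overlapped, with irradiated Sirpα-/- tumors at 47.4 to 185 and irradiated WT tumors at 23.7 to 115.

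The response of Ccl3 to IR went in opposite ways in MC38 and KPC tumors. In MC38 it was 6.05-fold higher after IR in WT mice (95% interval of counting error 3.8 to 9.97) and 3.02-fold higher in Sirpα-/- mice (2.02 to 4.63), or 1.91-fold in the latter with scaling by the median ratio. In irradiated WT MC38 tumors 31.1% of 312 genes were higher by at least 2-fold on the scale of (normalized count + 10), and in Sirpα-/- tumors 35% of 337. In KPC it was 3.84-fold lower after IR in WT mice (2.25 to 6.41), or 6.18-fold with scaling by the median ratio, where 7.12% of 267 genes were lower by 2-fold, and 1.78-fold lower in Sirpα-/- mice (0.907 to 3.23). Pan02 was split by genotype, with a value 1.70-fold lower after IR in WT mice (1.20 to 2.46) and 1.51-fold higher in Sirpα-/- mice (1.04 to 2.20). The KPC ratios rest on the samples with the fewest counts. Ccl3 was not alone in these directions. Ccl8 was 9.24-fold (WT) and 4.43-fold (Sirpα-/-) higher after IR in MC38, and 10.9-fold and 8.00-fold lower in KPC. Ccl6 was 35.3-fold (from 2.5 net counts) and 1.53-fold higher in MC38, the latter a ratio of 0.969 with scaling by the median ratio. In KPC Ccl6 was 11.6-fold and 1.60-fold lower. Ccl7 and Ccl11 did not share these directions in both genotypes.

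After IR, Sirpα-/- tumors held 4.94-fold more Ccl3 than WT tumors in Pan02 (3.38 to 7.28) and 2.00-fold more in KPC (1.37 to 2.94). In MC38 the ratio was 0.889 (0.660 to 1.20), so the direction was not shared by all tumor models. Of 448 genes compared in Pan02, 32.6% were higher by at least 2-fold, Ccl3 and Ccl4 among them. Across tumor models the log2 fold change between irradiated genotypes was 0.88 (SE 0.64, limma adjusted p = 0.445), with a 95% interval from -0.52 to 2.29. Ccl3 passed the test in none of the 8 comparisons: the log2 fold change was -0.04 for IR in WT mice, 0.40 for IR in Sirpα-/- mice (95% interval -1.01 to 1.80) and 0.45 between genotypes without IR, where limma called 0 of 461 genes (0%), edgeR 0, and 12 had an unadjusted p under 0.05.

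**Figure D4:**
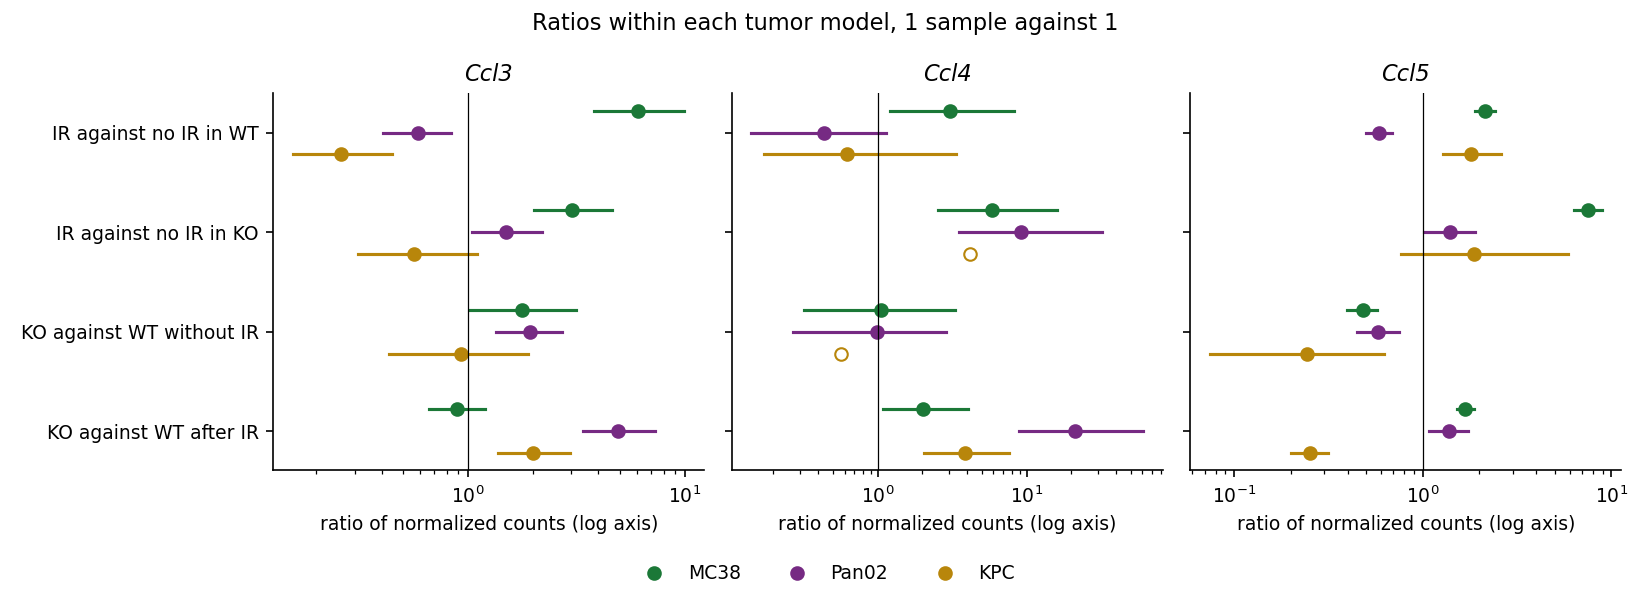
Ratios of normalized counts (log axes) of Ccl3, Ccl4 and Ccl5 within each tumor model, 1 sample against 1, with bars for the 95% interval of counting error, and open circles without a bar where 1 of the values was the lowest of its sample. Ccl3 after IR lies above 1 in MC38 and below 1 in KPC in both genotypes, and Ccl5 without IR lies below 1 in Sirpα-/- against WT tumors in 3 of 3 tumor models.

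Ccl5, a product of T and NK cells and of cells exposed to interferon or NF-kB signals, passed the test between tumor models but not between genotypes or treatments. In MC38 tumors it was at 359.7 normalized counts in WT and 173 in Sirpα-/- mice without IR, and at 769 in WT and 1292 in Sirpα-/- mice after IR. In Pan02 tumors the values were 309, 179.9, 182 and 250.1 in the same order. In KPC tumors they were 133, 32.4 (5 net counts), 239 and 60.3. MC38 tumors had the highest value of the 3 tumor models in 3 of the 4 groups, and KPC and MC38 values overlapped only through the KPC tumors of irradiated WT mice (239) and the MC38 tumors of Sirpα-/- mice without IR (173).

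Ccl5 was higher in MC38 than in KPC tumors by a log2 fold change of 2.33 (SE 0.49, limma adjusted p = 0.00275), in 4 of 4 groups, and higher in Pan02 than in KPC by 1.21 (limma adjusted p = 0.0465), in 3 of 4 groups. Many genes were called in the same direction. Between MC38 and KPC limma called 218 of 461 genes (47.3%), 207 of them higher in MC38. Between Pan02 and KPC it called 310 (67.2%), 309 of them higher in Pan02. The median log2 fold change of all genes was 0.72 between MC38 and KPC and 1.03 between Pan02 and KPC. Among the log2 fold changes of all genes tested, that of Ccl5 held percentile 97.8 and 60.5 in these comparisons. When samples were scaled by the reference genes, which were lower in KPC, the medians of all genes became -0.27 and 0.27. With this scaling 10 genes were called higher and 34 lower in MC38 than in KPC, and 0 between Pan02 and KPC. The log2 fold changes of Ccl5 were then 1.20 (limma adjusted p = 0.148) and 0.38 (limma adjusted p = 0.678), so that both calls depended on the scaling. MC38 exceeded Pan02 by a log2 of 1.13, which did not pass the test (limma adjusted p = 0.110), while 124 of 461 genes did (26.9%), 39 of them higher in MC38, or 21 of 136 with scaling by the reference genes.

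IR was followed by more Ccl5 in both genotypes of MC38. The ratio was 2.14 in WT mice (95% interval of counting error 1.88 to 2.43) and 7.48 in Sirpα-/- mice (6.35 to 8.86), from 1 sample against 1 in each genotype. Scaled by the median ratio these ratios were 1.46 and 4.74. In Pan02 Ccl5 was 1.70-fold lower after IR in WT mice (1.45 to 1.99) and 1.39-fold higher in Sirpα-/- mice (1.02 to 1.90). In KPC it was 1.80-fold higher in WT mice (1.28 to 2.61), or 1.12-fold with scaling by the median ratio, and 1.86-fold higher in Sirpα-/- mice (0.770 to 5.86). Across tumor models the log2 fold change after IR in Sirpα-/- mice was 1.34 (SE 0.56, limma adjusted p = 0.0751), with a higher value in 3 of 3 tumor models, and in WT mice 0.38 (limma adjusted p = 0.735). The difference of these effects was 0.96 (limma adjusted p = 0.651), with a 95% interval from -0.80 to 2.71.

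Without IR, Ccl5 was lower in Sirpα-/- than in WT tumors in 3 of 3 tumor models. It was 2.08-fold lower in MC38 (1.74 to 2.51), 1.72-fold lower in Pan02 (1.34 to 2.23) and 4.09-fold lower in KPC (1.60 to 13.4, resting on 5 net counts). In these comparisons 3.31% of 272 genes in MC38 and 6.02% of 216 genes in KPC were lower by at least 2-fold, Ccl5 among them. Across tumor models the log2 fold change of -1.17 did not pass the test (SE 0.56, limma adjusted p = 0.967), with a 95% interval from -2.41 to 0.07. After IR the genotypes went apart by tumor model: Ccl5 was 1.68-fold higher in Sirpα-/- than in WT tumors in MC38 (1.52 to 1.86) and 1.37-fold higher in Pan02 (1.08 to 1.74), but 3.96-fold lower in KPC (3.18 to 4.97), where 6.88% of 276 genes were lower by 2-fold. The log2 fold change over the 3 models was -0.22 (limma adjusted p = 0.875).

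**Figure D5:**
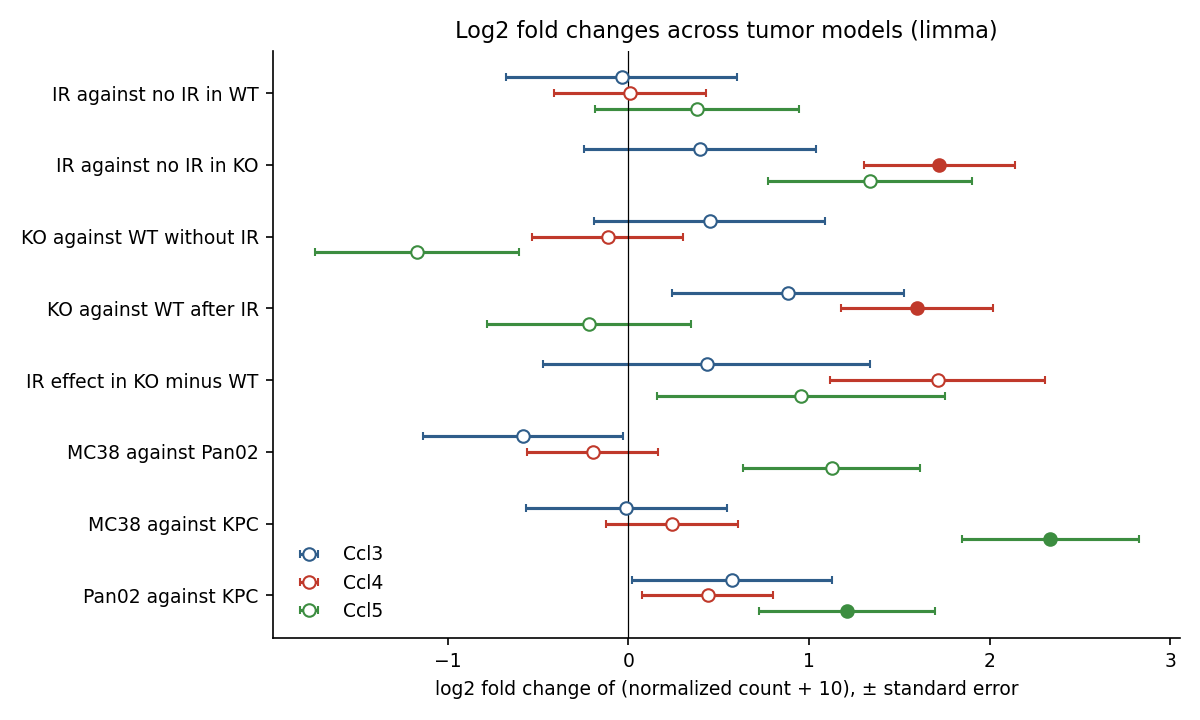
Log2 fold changes of (normalized count + 10) across tumor models for Ccl3, Ccl4 and Ccl5 in the 8 comparisons, with bars for the standard error and filled circles where the adjusted p of limma is under 0.05. Ccl4 is filled for IR in Sirpα-/- mice (1.72) and between irradiated genotypes (1.60), Ccl5 for MC38 (2.33) and Pan02 (1.21) against KPC, and Ccl3 in no comparison. Ccl4 entered the test only through its value in irradiated Sirpα-/- Pan02 tumors.

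Ccr3, the eotaxin receptor that also binds CCL5, and Ccbp2 (now Ackr2), an atypical receptor that takes up CC chemokines without signaling, were at or near the lowest value outside irradiated Sirpα-/- tumors. Ccr3 was at 22.3, 100.3 and 30.2 normalized counts in irradiated Sirpα-/- MC38, Pan02 and KPC tumors and at most 6.48 elsewhere. In irradiated Sirpα-/- against irradiated WT tumors it was at least 4.93-fold higher in MC38 and at least 41.1-fold higher in Pan02, against the floor of 3 counts, and 6.66-fold higher in KPC (3.23 to 15.4). Ccbp2 was at 12.5, 64.0 and 19.1 in the same 3 samples, and in this comparison it was at least 2.76-fold, 26.2-fold and 12.6-fold higher. Both passed the test after IR in Sirpα-/- mice (limma adjusted p = 0.00865 and 0.0144) and between irradiated genotypes (limma adjusted p = 0.00718 and 0.0126). Like Ccl4, both passed the filter only through 1 sample of 50 or more, irradiated Sirpα-/- Pan02 tumors, and both lay in the range of values in which the low end of these samples was raised. After quantile normalization the log2 fold changes of Ccr3 were 0.95 and 1.08 and those of Ccbp2 0.30 and 0.58, and none of these passed the test. Nor did either gene pass in these comparisons without KPC (limma adjusted p = 0.0641 and 0.0891 for Ccr3, 0.0758 and 0.142 for Ccbp2), with edgeR (edgeR adjusted p = 0.185 and 0.117 for Ccr3, 0.198 and 0.117 for Ccbp2) or with the methods' t-test, nor Ccbp2 without MC38 (limma adjusted p = 0.0623 and 0.0558).

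Among other ligands and receptors of this group, those called in comparisons of genotype or IR were all receptors. Of the 11 symbols taken for the pathway 10 were measured and 8 tested. After IR in Sirpα-/- mice 3 of the 8 were higher (Ccr3, Ccbp2 and Ccrl2, an atypical receptor that binds chemerin), with a median log2 fold change of 0.68 beside 0.91 over all genes, and none was lower, where 43.2% of all genes tested were called. Ccrl2 did not pass there without Pan02 (limma adjusted p = 0.0780), without KPC (0.0641), after quantile normalization (0.166), with no tumor model in the fit (0.0891), with edgeR or with the methods' t-test. Between irradiated genotypes 2 of the 8 were higher (Ccr3 and Ccbp2), beside 16.5% of all genes called, with a median of 0.87 beside 0.16. In the other comparisons of genotype or IR none of the 8 passed. The monocyte chemoattractant Ccl7 was higher in MC38 than in Pan02 (log2 1.79, limma adjusted p = 0.0143) and than in KPC (log2 1.43, limma adjusted p = 0.0247). It was at 103 to 559 normalized counts in MC38, 45.9 to 121 in Pan02 and 45.5 to 136 in KPC. Against KPC it did not pass with scaling by the reference genes (log2 0.29) or the median ratio (0.42). Nor did it pass with edgeR (0.58), after quantile normalization (0.54) or without Pan02 (1.43). Ccl6 and Ccl9, mouse ligands of CCR1, ranged from 1.94 to 140.3 and from 66.0 to 262 and passed in no comparison, nor did Ccl8 (205 to 3307) or the eotaxin Ccl11 (1.0 to 73.7), while the eotaxins Ccl24 (1.0 to 32.6) and Ccl26 (1.0 to 11.4) stayed below the filter.

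Genes of the signaling pathways that are known to induce these chemokines were among the 43.2% of all genes tested that were called after IR in Sirpα-/- mice. Of 13 tested NF-kB targets and subunits, 6 were higher in that comparison (Cxcl1, Cxcl3, Il1b, Nfkbia, Nfkbiz and Relb), and of 11 tested interferon regulatory and induced genes, 7 (Ifih1, Ifit2, Irf1, Irf3, Irf7, Irf8 and Mx1). Their median log2 fold changes were 1.10 and 1.27 beside 0.91 over all genes. Between irradiated genotypes 0 of the 13 and 2 of the 11 (Irf3 and Mx1) were higher, where 16.5% of all genes were called.

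Markers of cell types that make or follow these chemokines were summed in each sample. The 13 measured of 15 T and NK cell genes summed to 573 to 1751 normalized counts in irradiated Sirpα-/- tumors, 609 to 1937 in irradiated WT tumors, 354 to 1046 in Sirpα-/- and 504 to 848 in WT tumors without IR. Of 13 macrophage and monocyte symbols, among which Emr1 and Adgre1 name the same gene, 9 were measured. They summed to 2378 to 8723, 3104 to 7303, 927 to 3329 and 1085 to 5671 in the same order. The 5 measured of 8 neutrophil genes summed to 196 to 2895, 102 to 1829, 49.0 to 1630.3 and 26.4 to 1131. Over all tumor models the groups overlapped in all 3 lists. Within each tumor model the neutrophil sum, like Ccl4, was highest in irradiated Sirpα-/- tumors, at 196 beside 102 in irradiated WT and 49.0 in Sirpα-/- tumors without IR in MC38, 2895 beside 1829 and 1630.3 in Pan02, and 1309 beside 515 and 77.8 in KPC. The 20th percentile of all genes was also highest in these samples (17.8 to 49.5), and its part in the sums was not tested. In MC38 the 5 genes summed to only 26.4 to 196. In MC38 the T and NK cell sum was 1937 in irradiated WT and 1483 in irradiated Sirpα-/- tumors, where Ccl5 was at 769 and 1292. In Pan02 the sum was 609 and 1751, with Ccl5 at 182 and 250.1. In KPC it was 678 and 573, with Ccl5 at 239 and 60.3. Between irradiated genotypes the sum and Ccl5 thus went the same way in Pan02 and KPC and opposite ways in MC38. Cd4 and Tbx21 were at the lowest value in WT MC38 tumors with and without IR, 4 (WT) and 7 (Sirpα-/-) of the 13 genes were at the lowest value in KPC tumors without IR, and Camp was so in most samples of all tumor models. After IR in Sirpα-/- mice 5 of 12 tested T and NK cell genes, 4 of 9 macrophage genes and 4 of 4 neutrophil genes were higher, beside 43.2% of all genes. The part of these cells in the chemokine values was not tested.

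The genes whose values followed each ligand most closely differed between the ligands. Over the 12 samples, with the mean of each tumor model removed and 461 genes compared, Ccl4 was most like Irf4 (Pearson r = 0.97), C8b (0.97) and Ccl19 (0.97). These genes ranged from 1.0 to 71.3, 1.0 to 76.1 and 1.94 to 233 normalized counts over the samples. Irf4 is a lymphocyte transcription factor, C8b encodes a subunit of the complement attack complex and Ccl19 is a ligand of CCR7. Ccl3 was most like Ccl6 (0.90), the scavenger receptor gene Cd163 (0.90) and Cd3d of the T cell receptor complex (0.90). Ccl5 was most like the leukocyte genes Lilrb3 (0.91) and Cd48 (0.90) and the TNF receptor family member Tnfrsf14 (0.88). Between the ligands r was 0.66 for Ccl3 and Ccl4, 0.34 for Ccl4 and Ccl5 and 0.21 for Ccl3 and Ccl5 (0.81, 0.30 and 0.39 without the KPC samples that had no IR). These are descriptions over samples that share tumor models and scaling factors. The low end was raised in irradiated Sirpα-/- samples, and its part in the correlations of low genes such as Ccl4 was not tested.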

How the data were processed

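Bulk tumor RNA of 12 pooled samples was measured on the nCounter panel. The authors made the deposited signal, normalized counts per gene, in nSolver 2.6 by deducting the background of the negative controls and applying a factor from the positive controls. Whole counts behind the deposited values were recovered with a tolerance of 0.1 count. All of them (100%) came out whole in 7 samples, and offset by 0.5 in the other 5. The 2 deposited tables were identical in 6732 gene values. No column was left unmapped (0).

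Genes whose maximum reached 50 (461) entered limma 3.58.1 (R 4.3.3) as log2(value + 10). The model held the 4 groups and, as a block, the tumor model, since samples of 1 tumor model come from the same cell line, with Benjamini-Hochberg adjustment at 0.05 over all genes tested. Fold changes on this scale understate those of low genes. Ratios within a tumor model were not tested. Their 95% intervals are conditional (Clopper-Pearson) ones from net counts, with 3 counts as the floor. They cover the counting error of these net counts only. The error of the deducted background is not in them, so for low genes they may be too narrow. Counts at 2-fold used log2(value + 10) and genes with a value of at least 50. The procedure was tested on simulated data, with a spread set below that within tumor models here and without the filter. This does not test the calls made here.

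Members and lists were chosen with earlier results of these data known. Named are the members, the pathway list, the 3 genes most like each member and genes of the other lists that passed. One gene is not reported here. Alternatives were 2 scalings, another pseudocount, no filter, edgeR 4.0.16 on recovered counts, the methods' t-test, and leaving out samples. Quantile normalization without the filter, no block, and Ccl4 without Pan02 and the filter were chosen after seeing the data. Promoters are from RefSeq (GRCm38.p6). Gene symbols were kept as deposited, and 545 were current, 14 older and 2 not found in the reference table. Figures were drawn with matplotlib 3.10.9.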

Additional observations from a re-analysis of the deposited data

Results flagged for a closer look

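The IR effect on Ccl3 differed between tumor models. It was upward in both genotypes of MC38 and downward in both genotypes of KPC, and the mean of both genotypes on the scale of log2(value + 10) was higher in MC38 by 2.88. This difference was not tested. Ccl8 and Ccl6 also rose in both genotypes of MC38 and fell in both genotypes of KPC.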

How the results depend on the processing

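Of 249 repeats of the members' 24 log2 fold changes under other settings, 196 kept the direction and the side of the threshold, 21 kept the direction but no longer passed, and 32 changed sign, all of these among values that had not passed. Of 72 repeats of ratios within a tumor model 67 stayed within their counting interval. The 5 that did not were those of Ccl5 and Ccl3 under scaling by the median ratio, 4 of which stand beside the ratios above, with Ccl5 between Pan02 genotypes without IR as the fifth (a ratio of 0.758 in place of 0.582). The causes of the changes below were not tested.

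Ccl4 after IR in Sirpα-/- mice did not pass with edgeR (2.53), the methods' t-test (1.72), quantile normalization (0.70), without KPC (2.00) or without Pan02 and the filter (1.38). Without MC38 it was 1.79 and passed, and adjusted p over all alternatives from 0.0110 to 0.262. Between irradiated genotypes Ccl4 did not pass with edgeR (2.28), the methods' t-test (1.60), quantile normalization (0.60), without Pan02 and the filter (0.93), or without MC38 or KPC (1.84 to 2.02), with adjusted p from 0.0173 to 0.443. Ccl5 in MC38 against KPC did not pass with scaling by the reference genes (1.20) or by the median ratio (1.34), with edgeR (1.43) or quantile normalization (1.31). In Pan02 against KPC it did not pass under those settings (0.38, 0.16, 0.014 and 0.080), with no filter (1.21) or without the KPC samples that had no IR (1.28).

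Signs changed as follows. Without the KPC samples that had no IR, Ccl3 was at 0.76 for IR in WT mice and 0.99 for MC38 against KPC, and Ccl4 at 0.016 between genotypes without IR. With the median ratio, edgeR and quantile normalization, Ccl3 was at -0.092, -0.19 and -0.32 for IR in Sirpα-/- mice, and Ccl5 at -0.024, -0.033 and -0.083 for IR in WT mice. For Pan02 against KPC, scaling by reference genes, the median ratio, edgeR and quantile normalization put Ccl3 at -0.22, -0.43, -0.61 and -0.51 and Ccl4 at -0.069, -0.21, -0.18 and -0.037. For MC38 against KPC the first 3 put Ccl4 at -0.45, -0.42 and -0.21, and for MC38 against Pan02 quantile normalization put it at 0.13. For IR in WT mice Ccl4 was at -0.15, -0.24, -0.27 and -0.28 under the 4 settings and at -0.063 with a pseudocount of 1.

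Leaving out 1 tumor model gave Ccl3 -1.11 (without MC38) to 0.74 (without KPC) for IR in WT and -0.082 to 0.95 for IR in Sirpα-/- mice, Ccl4 (without MC38 or KPC, since it stayed below the filter without Pan02) -0.42 to 0.18 for IR in WT mice and -0.19 to 0.016 between genotypes without IR, and Ccl5 -0.69 to 0.59 between irradiated genotypes.

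The number of genes called after IR in Sirpα-/- mice (199) was 76 with the median ratio, 116 without the KPC samples that had no IR, 23 with quantile normalization, 64 with no replicate block, 0 with edgeR and 0 with the methods' t-test, and 0 (without Pan02) to 101 (without MC38) without 1 tumor model. The 76 genes between irradiated genotypes became 116 with no filter, 3 with edgeR, 14 with quantile normalization, 0 with the methods' t-test and 0 to 27 without 1 tumor model. For the difference of the IR effects 0 to 1 were called. Reference genes, the median ratio, edgeR and quantile normalization left 44, 52, 33 and 52 genes between MC38 and KPC, and 0 each between Pan02 and KPC. With no replicate block, where the tumor model is left out of the fit, no call of the 3 chemokines changed in the comparisons of genotype or IR (those between tumor models have no such fit), and Ccl4 passed in both comparisons (limma adjusted p = 0.0211 and 0.0353). The genes most like Ccl4 ranked 1, 3 and 5 without the KPC samples that had no IR and 6, 8 and 14 by Spearman correlation. Those of Ccl3 ranked 12, 15 and 6, and those of Ccl5 7, 4 and 11, without these KPC samples. In those KPC samples a value under 11.4 or 19.5 normalized counts rests on fewer than 3 counts.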
